A study of Mus musculus with 6 samples.

Results

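The adhesion genes described here are 37 genes for integrin chains, selectins, their ligands and other cell adhesion molecules. They were taken by symbol from the array annotation, which held 90 probe sets for them. After a filter on low values 30 of the 37 genes could be tested, against 11529 of all 18193 genes on the array. The 7 others were Itga2, Itga7, Itgb4, Itgb6, Itgb8, Jam2 and F11r, and they are described last.

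The arrays measured RNA of mouse bone marrow cells sorted as lacking lineage markers and carrying Sca1, a gate rich in haematopoietic stem and early progenitor cells. Wild-type (WT) mice, for which no strain is given, were compared with mice lacking both Nr4a1 and Nr4a3 (DKO), which were bred from single knockouts on a C57BL/6 and 129SvJ hybrid background. All mice were 2 to 3 weeks old. There were 3 arrays per genotype, each hybridised with a pool of RNA from 10 to 20 mice, and errors therefore describe pools rather than single animals. The NR4A proteins are nuclear receptors, and the comparison asks which transcripts of these cells depend on the pair that was deleted.

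Nr4a1 had a mean signal of 21.4 in DKO against 1065 in WT, while the representative probe set of Nr4a3 was too dim to check the labels. The markers of stem and early progenitor cells were present in both groups, with 8 of 8 tested markers lower in DKO. At an adjusted p under 0.05 in limma 6 of the 8 were lower (75.0%, against 0.633% of all genes tested). The summed signal of these markers was 33761 to 41749 in WT and 16354 to 19959 in DKO. WT replicate 2 stood apart from the other WT arrays on the second principal component, which held 22.8% of the variance. It also had the highest summed signal of the neutrophil list, 82715, against 17462 and 36667 in the other WT arrays. This was not particular to neutrophils. In the erythroid list WT replicate 2 had 72061, against 40272 and 26874. It was the highest WT array in every marker list except the stem cell and the megakaryocyte lists, where it was the lowest.

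Integrins are receptors made of an alpha and a beta chain that bind matrix proteins or counter-receptors on other cells, and they bind firmly only once signals from inside the cell have activated them. In bone marrow the beta 1 integrins hold stem cells to the niche and guide them back to it after transplantation. The beta 2 integrins are made by leukocytes and serve in firm arrest and phagocytosis, and beta 3 is best known from the fibrinogen receptor of platelets. Selectins start the rolling of cells on the vessel wall and bind sugar-modified ligands such as the product of Selplg.

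The leukocyte chain Itgb2 and the platelet chain Itgb3 rose in DKO cells, while none of the 5 chains of stem cell homing passed in either direction. As ratios of mean signals Itgb2, the shared beta chain of the leukocyte integrins, rose 2.15-fold and Itgb3 2.42-fold. Among the homing chains Itga9 was lower by a similar size (-1.20, beside 1.16 for Itgb2) but missed the threshold (adjusted p = 0.114 in limma). The other 4 had small differences with intervals that include 0. The contrast in calls is therefore not one of size for Itga9. Itgb2 and Itgb3 were the 2 members past the threshold of an adjusted p of 0.05 in limma, and 0 members fell. Both calls were lost with an offset of 1, with no filter on low values and without an intensity trend in the fit. They were also lost when any array other than WT replicate 2 was left out. Over all genes fewer rose in each of these settings as well, 30 to 107 against 124 as reported. The risen members were 6.67% of the 30 tested, beside 1.08% of all genes tested that rose, and 0.633% of all genes fell. The median log2 difference, DKO minus WT on the log2(signal + 16) scale, was 0.20 over the 30 members and -0.01 over all genes. At an unadjusted p under 0.05 there were 5 higher and 2 lower members, together 23.3% of those tested against 16.3% of all genes. The groups did not overlap in 7 members (23.3%), a share near that of all genes (22.0%).

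**Figure D1:**
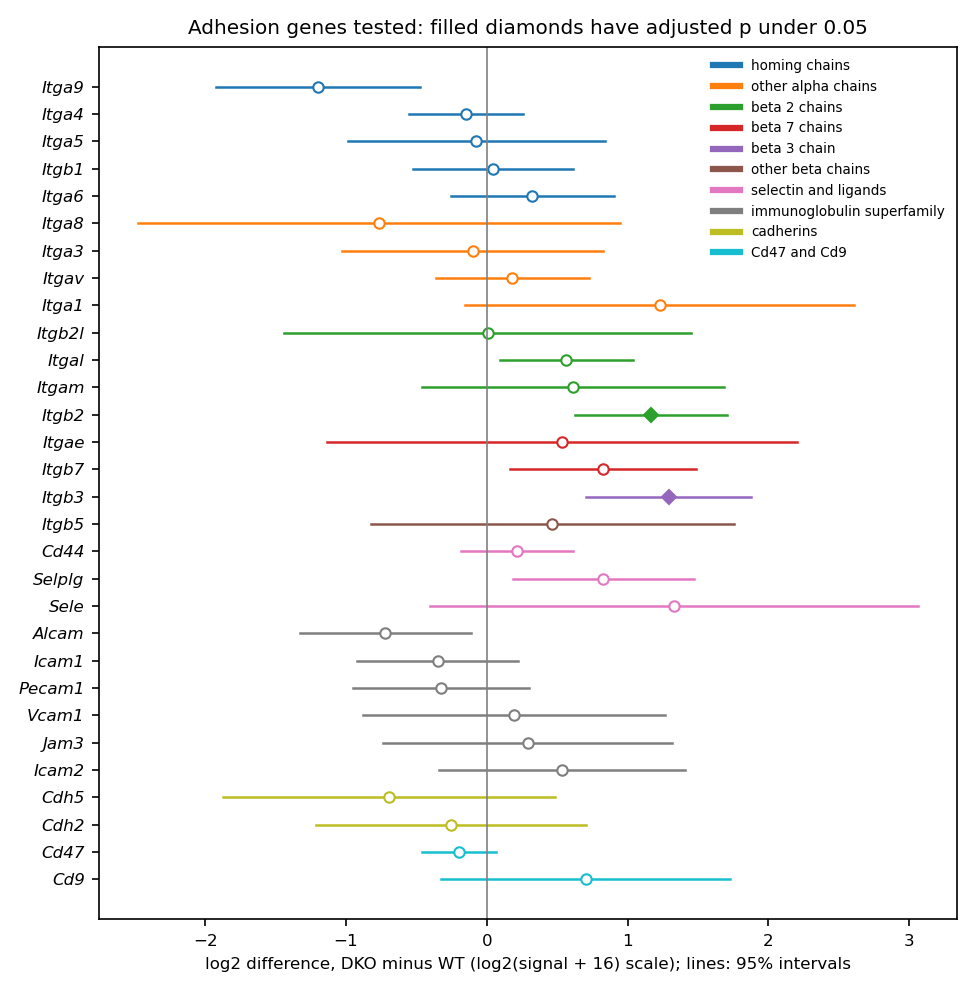
Log2 difference between DKO and WT (x axis, log2(signal + 16) scale) for the 30 adhesion genes tested, 1 row per gene, coloured by class. Points are estimates from 3 arrays per group, lines are 95% intervals of the limma fit, and filled diamonds mark adjusted p under 0.05. Itgb2 and Itgb3 are filled, at 1.16 and 1.29, and 4 of the 5 homing chains lie between -0.15 and 0.32.

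The chains fell into 6 higher of 6 tested beta chains and 6 higher of 11 tested alpha chains. The beta chains had a median log2 difference of 0.64 and the alpha chains one of 0.18. All 6 beta chains were also higher with quantile normalization and with median centring of the arrays, but Itgb1 and Itgb2l lay near 0. The sign of Itgb2l turned in 5 of the 17 other settings (an offset of 64 and 4 with an array left out) and that of Itgb1 in 3, each with an array left out, so as few as 4 of 6 beta chains were higher there. Median centring moved the median of all tested probe sets from -0.05 to 0.06, and differences given here are those of the authors' scaling.

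Among the beta 2 chains, Itgb2 encodes the beta chain that pairs with the alpha chains of Itgal, Itgam and related genes. Its signal was 2009, 4044 and 2189 in the WT arrays and 5352, 6601 and 5731 in the DKO arrays. All DKO arrays lay above all WT arrays, and WT replicate 2 was the highest of its group. The log2 difference was 1.16 ± 0.25 (SE), with an adjusted p of 0.0446 in limma. The call was lost when any array other than WT replicate 2 was left out, with adjusted p up to 0.166. Without WT replicate 2 the difference was 1.48 with an adjusted p of 0.00217. In the 11 settings that kept all arrays it passed in 7, with adjusted p from 0.0137 to 0.207.

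Itgal, the alpha chain of the lymphocyte function-associated integrin, binds the intercellular adhesion molecules. Its signals were 1165, 1639 and 1437 in WT and 1967, 1912 and 2383 in DKO. The groups did not overlap, but the difference of 0.56 ± 0.22 missed the threshold (adjusted p = 0.253). A second, dim probe set of Itgal gave -0.12 (adjusted p = 0.945). Itgam, the alpha chain of the macrophage and neutrophil integrin, gave 64.9, 128 and 35.4 in WT and 149, 97.8 and 97.4 in DKO. Its groups overlapped, and its difference was 0.61 ± 0.49 (adjusted p = 0.620). Itgb2l, a relative of Itgb2 known from neutrophils, gave 179, 813 and 75.5 in WT and 301, 150 and 269 in DKO. Here WT replicate 2 was the highest array of all, and the difference of 0.01 ± 0.66 became 0.88 without that array (adjusted p = 0.470).

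The 4 beta 2 chains had a median log2 difference of 0.59. All 4 differences were above 0, but Itgb2l counts there with 0.01 while its mean signal was lower in DKO (239.8 against 356). It was below 0 with an offset of 64 (-0.065) and without WT replicate 1, WT replicate 3, DKO replicate 1 or DKO replicate 3 (-0.71 to -0.098), which left 3 of 4. Leaving out WT replicate 2 gave a median of 0.94, and leaving out WT replicate 3 gave 0.42. Markers of cells that make beta 2 integrins were counted beside these chains. In the neutrophil list 2 of 8 tested markers were higher, 0 rose, and the summed signals overlapped (17462 to 82715 in WT, 29272 to 51106 in DKO). In the mast cell, basophil and eosinophil list 9 of 9 were higher and 7 rose, and the summed signal was 1419 to 12730 in WT and 25785 to 32470 in DKO. In the T, natural killer and innate lymphoid list 14 of 14 were higher and 7 rose, with sums of 1894 to 3245 in WT and 10272 to 15574 in DKO. In the monocyte and macrophage list 5 of 7 were higher and 2 rose, with sums of 8319 to 26995 in WT and 11660 to 15327 in DKO. In the B lineage list 7 of 7 were lower and 1 fell, with sums of 3155 to 10826 in WT and 1693 to 2155 in DKO. In the plasma cell list 3 of 4 were higher and 2 rose, with sums of 2851 to 3796 in WT and 19362 to 46690 in DKO. The sums were led by the immunoglobulin A gene Igha (mean 781 in WT and 23315 in DKO) and by Jchain (399 and 7940). Sdc1 of that list was lower without overlap (mean 1365 in WT and 864 in DKO, adjusted p = 0.351 in limma). Its markers Tnfrsf17 and Derl3 were left out by the filter. Some markers passed the filter only through their DKO signals, with WT means under the filter limit: Fcer1a and Ccr3 of the mast cell list, at 10.2 and 16.9, and 5 of the 14 T cell list markers, Cd3e, Cd7, Ncr1, Gzmb and Tbx21, at 13.3 to 39.2. Such markers could hardly be counted as other than higher. The part of these cells in the Itgb2 result was not tested. In pooled cells a change in the number of cells of a type and a change in RNA per cell cannot be told apart.

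**Figure D2:**
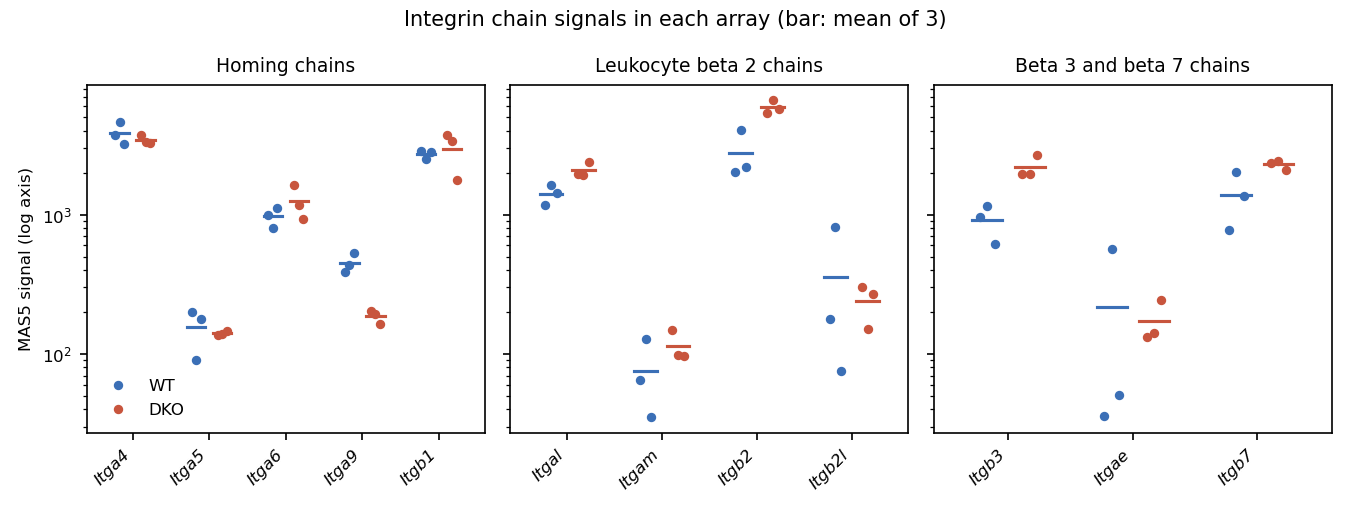
MAS5 signal (y axis, log scale) of 12 integrin chains in each of the 3 WT (blue) and 3 DKO (red) arrays, with a bar at each group's mean. The DKO points of Itgb2, Itgb3, Itgal and Itgb7 lie above all WT points, those of Itga9 lie below, and the groups of Itga4, Itga5, Itga6 and Itgb1 overlap.

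The promoters of 3 leukocyte chains and 2 homing chains, 1 with and 1 without a shared string, are shown for their letters. RefSeq promoters of build GRCm38.p6 (250 bases before to 50 after the start) were matched for 22 of the 37 genes, as 25 promoters. Itgb2 and Itgb3 were not among them. The windows shown are those of Itgam at chr7:128062390-128062689 (plus strand), Itgb2l at chr16:96443565-96443864 (minus strand), Itgb7 at chr15:102231886-102232185 (minus strand), Itga5 at chr15:103366742-103367041 (minus strand) and Itga9 at chr9:118711442-118711741 (plus strand), each read 5′ to 3′ along the gene. Capitals mark the NR4A and nuclear receptor core AGGTCA and the purine-rich GAGGAA, a core letter string of PU.1 sites, on either strand.
Itgam: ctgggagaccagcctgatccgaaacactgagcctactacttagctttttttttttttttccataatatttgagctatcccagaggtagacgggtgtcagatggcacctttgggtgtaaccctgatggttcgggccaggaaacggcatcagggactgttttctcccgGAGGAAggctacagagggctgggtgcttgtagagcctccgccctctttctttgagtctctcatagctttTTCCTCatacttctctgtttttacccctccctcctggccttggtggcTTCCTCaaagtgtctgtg
Itgb2l: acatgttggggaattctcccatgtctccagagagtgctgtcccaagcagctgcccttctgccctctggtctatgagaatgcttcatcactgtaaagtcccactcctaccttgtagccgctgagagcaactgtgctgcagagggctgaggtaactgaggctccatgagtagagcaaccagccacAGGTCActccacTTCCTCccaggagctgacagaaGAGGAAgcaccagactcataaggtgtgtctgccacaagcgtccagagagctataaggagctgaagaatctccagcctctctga
Itgb7: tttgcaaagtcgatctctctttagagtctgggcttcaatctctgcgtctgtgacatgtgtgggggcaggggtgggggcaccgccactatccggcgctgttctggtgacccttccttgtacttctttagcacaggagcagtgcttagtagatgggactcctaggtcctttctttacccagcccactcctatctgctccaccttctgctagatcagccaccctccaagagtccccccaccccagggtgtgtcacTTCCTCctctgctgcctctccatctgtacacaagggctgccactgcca
Itga5: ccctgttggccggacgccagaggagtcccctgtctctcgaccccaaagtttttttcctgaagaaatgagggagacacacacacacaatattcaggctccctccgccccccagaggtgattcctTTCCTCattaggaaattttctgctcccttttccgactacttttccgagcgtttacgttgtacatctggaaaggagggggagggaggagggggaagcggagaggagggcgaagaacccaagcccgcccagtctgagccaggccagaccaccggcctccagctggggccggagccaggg
Itga9: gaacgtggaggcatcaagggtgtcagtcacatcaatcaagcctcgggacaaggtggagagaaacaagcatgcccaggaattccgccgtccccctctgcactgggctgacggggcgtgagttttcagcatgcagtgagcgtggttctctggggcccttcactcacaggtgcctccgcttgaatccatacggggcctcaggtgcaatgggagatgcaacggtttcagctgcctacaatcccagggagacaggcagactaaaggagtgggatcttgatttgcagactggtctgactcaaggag

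The full NR4A monomer element AAAGGTCA, searched on both strands, was in 0 of the 25 member promoters and in 1.51% of all 32851. Its core AGGTCA, which lies inside that element, was in 1 member promoter, that of Itgb2l at position 184 of the window, and in 16.3% of all. GAGGAA was in 12 of the 25, against 28.3% of all promoters. The Itgam window held it at positions 167, 236 and 283, the Itgb2l window at 196 and 218, and the Itgb7 window at 253. Of the 4 homing chains with a promoter, Itga5 (position 124) and Itgb1 (position 242) held it, and Itga4 and Itga9 did not. GAGGAA thus occurred in 2 of 2 beta 2 chains, 1 of 1 beta 7 chain and 2 of 4 homing chains with a promoter. These numbers are too small to compare. The Itga9 window held neither GAGGAA nor AGGTCA. The strings AGATAA, a core of sites for GATA factors, and TGTGGT, a core of RUNX sites, were in 1 and 2 of the 25 member promoters, against 11.2% and 16.8% of all. The 3 strings other than AAAGGTCA and AGGTCA were chosen after the expression values were seen, and a match describes letters, not binding.

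Itgb3 pairs with the platelet alpha chain of Itga2b and with the alpha v chain of Itgav. Its signals were 962, 1146 and 613 in WT and 1953, 1960 and 2676 in DKO. Every DKO array lay above every WT array. The difference was 1.29 ± 0.27 with an adjusted p of 0.0409 in limma. It passed with 1 of 6 arrays left out, WT replicate 2 (1.48, adjusted p = 0.0203), and without any other array its adjusted p was 0.0780 to 0.169. A second, dimmer Itgb3 probe set gave 0.49 ± 0.50 (adjusted p = 0.715), and the mean over both gave 0.89 with an adjusted p of 0.173. In the 11 settings that kept all arrays Itgb3 passed in 6, with adjusted p from 0.0246 to 0.173.

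The partners of beta 3 did not pass. Itgav gave 1144, 2064 and 1658 in WT and 1531, 2011 and 1865 in DKO, with overlap and a difference of 0.18 ± 0.25 (adjusted p = 0.801). Itga2b gave 201, 99.8 and 176 in WT and 277, 259 and 233 in DKO, with no overlap but a difference of 0.68 ± 0.39 that missed the threshold (adjusted p = 0.456). In the megakaryocyte and platelet list 3 of 5 tested markers were higher and 0 rose. Its summed signal was 548 to 1561 in WT and 1362 to 1732 in DKO. Pf4, the platelet chemokine, changed from 671 to 958 in mean signal (0.67 ± 0.40, adjusted p = 0.486), and Gp6 was below the filter limit in all 6 arrays. The mast cell, basophil and eosinophil markers, given above with Itgb2, moved with Itgb3 as well, and their part in its rise was not tested.

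Beta 7 pairs with the alpha 4 chain for gut homing and with the alpha E chain of Itgae, known from mucosal lymphocytes. Itgb7 signals were 773, 2023 and 1357 in WT and 2356, 2441 and 2092 in DKO. The groups did not overlap, with WT replicate 2 just under the lowest DKO array, and the difference of 0.83 ± 0.30 missed the threshold (adjusted p = 0.234). Itgae gave 35.9, 563 and 50.6 in WT and 131, 142 and 245 in DKO. WT replicate 2 was above every DKO array, and the difference of 0.53 ± 0.76 (adjusted p = 0.814) became 1.63 without it and -0.11 without WT replicate 1. Neither difference passed. The mast cell and T cell lists given with Itgb2 were higher in DKO as well. So were 3 of 4 tested plasma cell markers, while Sdc1 was lower. The part of these cells in the values of Itgb7 and Itgae was not tested.

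The homing chains are those of the fibronectin and VCAM-1 receptor alpha 4 beta 1, the fibronectin receptor alpha 5 beta 1, the laminin receptor alpha 6 beta 1, and alpha 9 beta 1, which binds tenascin C and osteopontin. Of the 5 chains 2 were higher and 3 lower, and 0 passed in either direction. At an unadjusted p under 0.05 there was 1, Itga9. The median difference was -0.076, and it was 0.015 with quantile normalization and 0.032 with median centring, so its sign depends on the scaling. The stem and early progenitor markers were lower in DKO, as given above. The part of these cells in the values of the homing chains, Itga9 among them, was not tested.

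Itga4 gave 3731, 4625 and 3190 in WT and 3736, 3307 and 3267 in DKO. The groups overlapped, with a difference of -0.15 ± 0.19 and a 95% interval of -0.55 to 0.26 (adjusted p = 0.778 in limma). Its other 4 tested probe sets gave -0.07, -0.03, 0.43 and -0.04. The one at 0.43 gave 1336, 1138 and 1438 in WT and 1935, 1458 and 1912 in DKO. Its groups did not overlap, but it missed the threshold (adjusted p = 0.402 in limma), and the groups of the others overlapped. Itgb1, the beta chain common to these receptors, gave 2869, 2497 and 2819 in WT and 3700, 3395 and 1763 in DKO. DKO replicate 3 was the lowest and the other DKO arrays the highest, and the difference was 0.04 ± 0.26 with an interval of -0.53 to 0.61 (adjusted p = 0.965). A second bright Itgb1 probe set gave 1845, 1511 and 1177 in WT and 2453, 2066 and 1829 in DKO, a difference of 0.49 ± 0.23 (adjusted p = 0.357). The Itgb1 probe sets thus do not settle whether this chain was higher.

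Itga6 gave 999, 806 and 1115 in WT and 1621, 1174 and 935 in DKO. These overlapped, with a difference of 0.32 ± 0.27 (adjusted p = 0.629), and the other Itga6 probe set gave 0.28. Itga5 gave 199, 90.9 and 179 in WT and 136, 140 and 145 in DKO, a difference of -0.08 ± 0.42 (adjusted p = 0.962), with a wide interval of -0.99 to 0.84.

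Itga9 was the member with the lowest difference. Its signals were 384, 433 and 530 in WT and 203, 192 and 163 in DKO, a WT mean 2.41-fold that of DKO. All DKO arrays lay below all WT arrays, and the difference of -1.20 ± 0.33 missed the threshold (adjusted p = 0.114 in limma). A second probe set gave 367, 451 and 498 in WT and 177, 308 and 88.0 in DKO, also without overlap, at -1.27 ± 0.43 (adjusted p = 0.197). The remaining, dimmer probe set gave -0.55 (adjusted p = 0.667). With an array left out the first lay between -1.30 and -1.07, with adjusted p between 0.163 and 0.256.

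**Figure D3:**
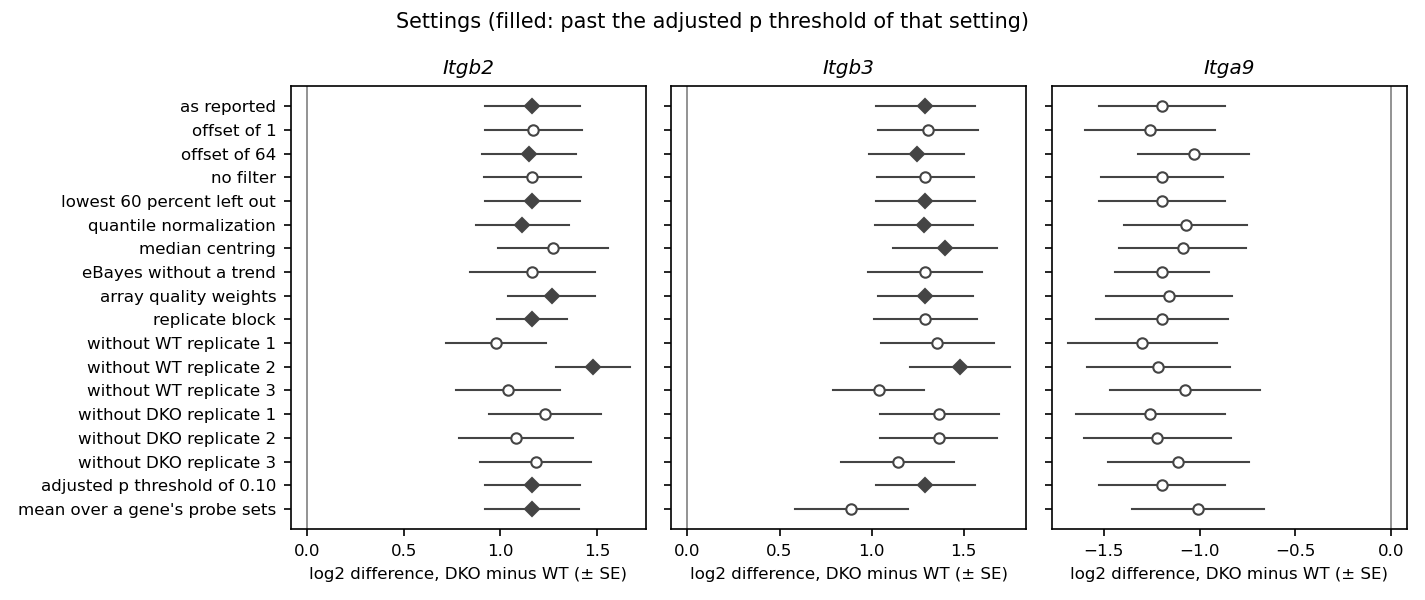
Log2 difference between DKO and WT (x axis, ± SE) of Itgb2, Itgb3 and Itga9 under the reported setting and 17 others, 1 row each. Filled diamonds passed the adjusted p threshold of their setting. Itgb2 stayed between 0.98 and 1.48, Itgb3 between 0.89 and 1.48 and Itga9 between -1.30 and -1.01, so the settings moved the calls but not the signs. Changes of the filter, trend, block or threshold alone could not move these estimates.

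The log2 difference between 2 chains was measured within each array for 12 pairs, 9 of an alpha and a beta chain that form a receptor and 3 of Itgb1 with another beta chain, which form none. With 3 arrays against 3 an exact permutation test cannot go below p = 0.1 (two-sided), so no pair could pass, and Benjamini-Hochberg values over the pairs were at least 0.3. Groups did not overlap for 4 pairs. Each of them holds a chain whose own groups did not overlap (Itga9, Itgb7 or Itgb3), so they are not separate results from the single chains. Itga9 changed against Itgb1 by -1.24 ± 0.29 (exact p = 0.1), Itga4 against Itgb7 by -0.97 ± 0.36 (exact p = 0.1), Itgav against Itgb3 by -1.11 ± 0.37 (exact p = 0.1) and Itgb1 against Itgb3 by -1.25 ± 0.57 (exact p = 0.1). Itgb1 against Itgb2 changed by -1.12 ± 0.51, with overlap (exact p = 0.2). Relative to Itgb2 the alpha chains of its family changed by -0.60 ± 0.26 for Itgal and -0.55 ± 0.35 for Itgam, with overlap in both (exact p = 0.2). The alpha 4, 5 and 6 chains against Itgb1 moved by -0.19, -0.12 and 0.28, with standard errors of 0.37, 0.44 and 0.20.

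**Figure D4:**
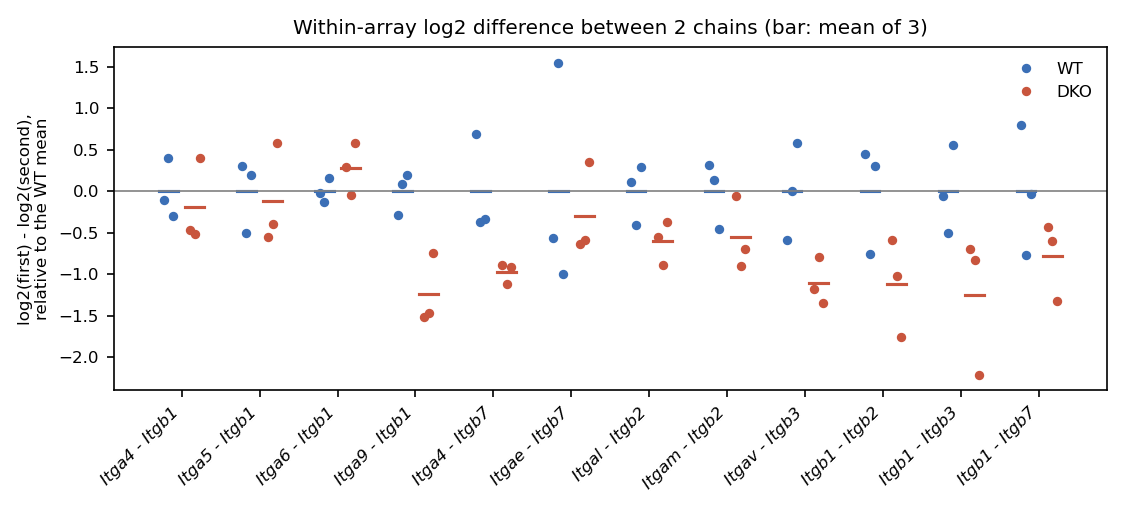
Within-array log2 difference between 2 integrin chains (y axis, first minus second, relative to the WT mean of the pair) for 12 pairs, in the 3 WT (blue) and 3 DKO (red) arrays, with bars at group means. All DKO points lie below all WT points for Itga9 - Itgb1, Itga4 - Itgb7, Itgav - Itgb3 and Itgb1 - Itgb3.

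Other alpha chains bind matrix proteins, among them collagens and laminins. Itga1, a collagen receptor chain also carried by some lymphocytes, gave 33.3, 308 and 47.6 in WT and 171, 243 and 255 in DKO. WT replicate 2 was the highest array of all, and the difference of 1.23 ± 0.63 (adjusted p = 0.406) became 2.07 without it, past the threshold (adjusted p = 0.0458, against up to 0.732 with another array left out). Itga8 gave 15.3, 249 and 389 in WT and 91.5, 70.0 and 58.2 in DKO. The WT arrays spanned the DKO arrays, and the difference of -0.76 ± 0.78 (adjusted p = 0.717) became -1.89 without WT replicate 1. Itga3 was at -0.10 ± 0.42, and Itgb5, a partner of alpha v, at 0.46 ± 0.59.

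Of the selectin axis, Selplg encodes the ligand that lets leukocytes and progenitors roll on selectins. It gave 445, 565 and 620 in WT and 833, 790 and 1375 in DKO. The groups did not overlap, and the difference of 0.83 ± 0.29 missed the threshold (adjusted p = 0.220). Sele, the selectin of activated endothelium, gave 2.2, 165 and 37.9 in WT and 283, 47.0 and 133 in DKO, a spread within each group that gave 1.33 ± 0.79 (adjusted p = 0.487). Cd44, the hyaluronan receptor, gave 2375, 2813 and 2785 in WT and 2698, 3193 and 3373 in DKO. Its groups overlapped, with a difference of 0.21 ± 0.18 and an interval of -0.19 to 0.61 (adjusted p = 0.648).

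The immunoglobulin superfamily members and cadherins did not pass in either direction. Alcam, an adhesion molecule of progenitors and activated leukocytes, gave 2024, 1871 and 1098 in WT and 854, 1223 and 873 in DKO. Only WT replicate 3 lay within the DKO range, and the difference was -0.72 ± 0.28 (adjusted p = 0.261). Its other 3 tested probe sets gave -0.28, -0.06 and 0.15. Icam1, a ligand of the beta 2 integrins, gave 1481, 1301 and 1902 in WT and 1168, 924 and 1624 in DKO, with overlap and a difference of -0.35 ± 0.26 (adjusted p = 0.589). Icam2, another such ligand, gave 134, 235 and 111 in WT and 254, 200 and 236 in DKO, also with overlap (0.54 ± 0.40, adjusted p = 0.589).

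Vcam1, the counter-receptor of alpha 4 beta 1, gave 206, 1070 and 371 in WT and 386, 608 and 542 in DKO. WT replicate 2 exceeded every other array, and the difference of 0.19 ± 0.49 (adjusted p = 0.904) became 0.82 without it and -0.32 without WT replicate 1. Pecam1, a molecule of endothelium, platelets and stem cells, was at -0.33 ± 0.29 and Jam3, a junctional molecule of stem cells, at 0.29 ± 0.47. The other Jam3 probe set gave -0.96 (adjusted p = 0.368), of the opposite sign. The endothelial cadherin Cdh5 was at -0.69 ± 0.54 and the neural cadherin Cdh2 at -0.25 ± 0.44. In the endothelial marker list 8 of 11 tested genes were lower and 1 fell, with a summed signal of 4768 to 6715 in WT and 3032 to 4345 in DKO. Tek, Emcn, Egfl7 and Esam were lower without overlap (36.4%, against 22.0% of all genes), and the other tested genes overlapped. Flt1, Plvap and Stab2 were higher. Egfl7 led the sums (mean 2227 in WT and 1219 in DKO), so they do not describe the list evenly. In the stromal and osteoblast list 7 of 9 were higher and 0 rose, with sums of 3526 to 9433 in WT and 4659 to 11199 in DKO. The part of these cells in the values of Vcam1, Sele, Cdh5 and Cdh2 was not tested.

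Cd47, the surface protein that signals against phagocytosis, and the tetraspanin Cd9 completed the set. Cd47 gave 16822, 16341 and 15518 in WT and 13743, 15041 and 13751 in DKO at its brightest probe set. The groups did not overlap, yet the difference was -0.20 ± 0.12 (adjusted p = 0.503), with an interval of -0.46 to 0.07. The other 4 Cd47 probe sets lay between -0.20 and 0.16. The one at 0.16 was higher in DKO without overlap, with 6049, 6888 and 6422 in WT and 7068, 7323 and 7270 in DKO (adjusted p = 0.651 in limma). Cd9 gave 166, 744 and 278 in WT and 464, 726 and 476 in DKO, with overlap (0.70 ± 0.47, adjusted p = 0.540), and 1.28 without WT replicate 2.

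The 7 members under the filter were fitted only in an alternative with all probe sets, where 0 passed. Itgb8, Itgb4, Itga7 and Itgb6, chains of epithelial, muscle or neural integrins, stayed at or below 31.5 in every array at their brightest probe sets. Itga2, a collagen receptor chain of platelets and lymphocytes, gave 24.5, 8.2 and 10.9 in WT and 176, 68.0 and 9.4 in DKO, so the DKO arrays disagreed (1.32 ± 0.68, adjusted p = 0.516). Jam2, a junctional molecule, gave 61.6, 61.8 and 74.7 in WT and 37.3, 30.9 and 26.0 in DKO, lower in every DKO array (-0.79 ± 0.46, adjusted p = 0.579). F11r, a related molecule of epithelium and platelets, gave 24.3, 69.1 and 71.3 in WT and 31.1, 29.0 and 7.0 in DKO (-0.87 ± 0.52, adjusted p = 0.590).

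Related genes outside the module did not pass in limma either. Of 8 tested relatives of these families 5 were higher and 3 lower, with 0 past the threshold and a median of 0.39. At an unadjusted p under 0.05 there were 5 (62.5%, against 16.3% of all genes), in a short list chosen with earlier results known. Cd34, a sialomucin of stem cells that can carry selectin ligands, gave 3731, 3136 and 3761 in WT and 2269, 2080 and 1820 in DKO (-0.78 ± 0.18, adjusted p = 0.0672). The epithelial cadherin gene Cdh1 gave 76.2, 2.2 and 137 in WT and 289, 262 and 391 in DKO (2.36 ± 0.67, adjusted p = 0.124). Itgax, the alpha chain of dendritic cells and a partner of Itgb2, was chosen after its values were seen. It gave 217, 48.9 and 50.4 in WT and 299, 247 and 394 in DKO (1.69 ± 0.52, adjusted p = 0.157).

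The machinery that activates integrins and links them to actin had 19 of 38 tested genes higher and 19 lower, with 0 past the threshold in limma. At an unadjusted p under 0.05 there were 7 (18.4%), a share near that of all genes (16.3%). Vcl, which encodes the actin linker vinculin, gave 1040, 1162 and 1394 in WT and 2237, 2091 and 2092 in DKO (0.84 ± 0.21, adjusted p = 0.0792). The kinase gene Src gave 135, 200 and 288 in WT and 38.0, 101 and 57.0 in DKO (-1.48 ± 0.47, adjusted p = 0.165). Both showed no overlap between groups.

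Among matrix ligands and counter-receptors 11 of 19 tested genes were higher and 0 passed in limma. An unadjusted p under 0.05 was reached by 2 (10.5%), against 16.3% of all genes. These were Npnt, the nephronectin gene of an alpha 8 ligand (-2.15 ± 0.87, adjusted p = 0.285), and Tnc, the tenascin C gene of an alpha 9 ligand (-1.28 ± 0.54, adjusted p = 0.314). Of 12 genes for the synthesis or carriers of selectin ligands 7 were higher and 0 passed. Only 1 (8.33%) had an unadjusted p under 0.05, the sialyltransferase gene St3gal6 (-0.98 ± 0.34, adjusted p = 0.207). The core enzyme gene Gcnt1 was at 0.37 ± 0.20 (adjusted p = 0.422). Of 12 tetraspanins other than Cd9, 10 were lower, 0 passed in limma and 3 (25.0%) had an unadjusted p under 0.05. The smallest p belonged to Tspan8 (-2.31 ± 0.55, adjusted p = 0.0705) and Cd81 (-0.47 ± 0.21, adjusted p = 0.329).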

How the data were processed

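RNA of 6 pools was measured on Affymetrix mouse arrays, 3 per group. The deposited table holds 1 linear intensity (MAS5 signal) for each of 45101 probe sets and array, made by the authors with MAS5, as named without a version in the submitters' processing notes. The authors' scaling was kept: all arrays had a trimmed mean (2% cut from each tail) of 500.0, and median signals were 91.7 to 123. The number of arrays limits the precision.

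Signals became log2(signal + 16). After 64 control probe sets were removed, the 40% with the lowest mean were left out (a limit near a signal of 53.2). The 27022 others were fitted with limma 3.58.1 in R 4.3.3 (eBayes with an intensity trend, no block, two-sided), with Benjamini-Hochberg adjustment over all of them; "rose" and "fell" mean adjusted p under 0.05. Errors of log2 differences are standard errors with n = 3 arrays per group. Each gene was represented by 1 probe set, the brightest of those that carry no other symbol (34945 probe sets, 34741 of them matched by gene identifier to RefSeq GRCm38.p6). Of 32 other tested probe sets of 15 members, 12 had the opposite sign and 0 passed.

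Members and lists were chosen with earlier results of these data known. Values per array are given for members past the threshold, the contrasted chains, the 12 smallest p and the 5 brightest, and in each pathway list the 2 smallest p are named; others are named for completeness. Lists were described by counts and medians, without a set test. Alternatives were offsets of 1 and 64, no filter or 60%, quantile normalization, median centring, a replicate block, no trend, quality weights for the arrays, leaving out single arrays, a threshold of 0.10 and averaging the probe sets of a gene. On simulated arrays with 27022 probe sets the fit recovered 8%, 34%, 68% and 88% of 50 probe sets changed by 1, 2, 3 and 4 on the log2 scale. Figures used matplotlib 3.10.9 in Python 3.11.15.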

Additional observations from a re-analysis of the deposited data

How the results depend on the processing

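The signs of Itgb2, Itgb3 and Itga9 held in all 17 other settings, and 0 members fell in any of them. The count of risen members, 2 as reported, was 0 with an offset of 1, with no filter on low values and with eBayes without a trend, and 1 with median centring (Itgb3), with the replicate block (Itgb2) and when the probe sets of a gene were averaged (Itgb2). Over all genes tested 124 rose as reported, against 87 with an offset of 1, 76 with no filter and 30 without a trend. With an array left out the count of risen members ranged from 0 to 3. It was 3 without WT replicate 2 and 0 without any of the 5 other arrays. Over all genes 196 rose without WT replicate 2, and 34 to 107 without another array. Fewer arrays were fitted in these settings, and the other causes were not tested. The median over homing chains, -0.076, ranged from -0.15 to 0.082 with an array left out, above 0 without WT replicate 1 (0.082) and without WT replicate 3 (0.046). The replicate numbers were not taken as pairs, since deviations of same-numbered arrays correlated at 0.14, -0.03 and 0.05, and not every array correlated best with its own number. In the replicate block Itgb3 had an adjusted p of 0.0736. At 3 arrays per group a log2 change of 1 was seldom recovered in simulated data (8%), so members that missed the threshold may still differ. The changed probe sets there were drawn at random over all tested intensities, so the share for bright members alone is not known. In the simulation 50 probe sets were changed at each of 4 sizes, while 370 were called in the data. The adjustment is stricter where fewer probe sets change, so the 8% may be too low for these data. Members near the limit of the filter, such as Itgam and Sele, have wide intervals.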
